A study of Mus musculus with 4 samples.

Results

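The genes described here are 48 genes of mitosis and the spindle, a list chosen by function and read on 4 microarrays of mouse gastric corpus epithelium. Of the 48, 47 had a probe set whose platform symbol was exactly the listed one, among 18193 genes measured in all, and Ccnb1 is not analysed here. The corpus, the region of the stomach that makes acid, was taken from wild-type mice aged 6 weeks. Mice of C57BL/6, BALB/c and FVB/N were used, and the labels tie no strain to an array. There were 4 groups of 1 array each: vehicle (10% ethanol in 90% sunflower seed oil) at 2.5 days, and tamoxifen at 12 hours, at 2.5 days and at 4.5 days, injected into the peritoneum at 5 mg per 20 g of body weight. Injections went on for 1 or 3 days, which the labels do not assign to arrays, and each array held RNA pooled from 3 mice, so no spread between samples exists and differences are given without p-values. The single vehicle pool dates from 2.5 days, so at 12 hours and 4.5 days treatment and time of collection cannot be told apart.

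Cells divide by copying their DNA, entering mitosis under cyclin-dependent kinase 1, attaching chromosomes to spindle microtubules through kinetochores, separating them under the control of a ubiquitin ligase and splitting in cytokinesis. The genes for these steps are transcribed mainly in G2 and M phase, so in a tissue their transcripts come chiefly from dividing cells. In the corpus, dividing progenitor cells normally lie in the isthmus of each gland, while parietal and chief cells rarely divide. In RNA from whole epithelium, fewer dividing cells and less RNA per dividing cell cannot be told apart.

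Genes of G2 and M phase are known to share promoter elements near their start sites. The cell cycle genes homology region (CHR) is bound by the MuvB core of the DREAM and MYB-MuvB complexes, and CCAAT boxes are bound by NF-Y. Promoters of 40 measured genes of the list, at 42 start sites, were found in the RefSeq table (build GRCm38.p6), each running from 250 bases before to 50 bases after a start. The 150 bases before the start are shown for Cdk1, Top2a, Kif11, Cdc20 and Espl1, which hold both elements there and stood at least 2-fold above vehicle at 2.5 days, and for Pttg1, which did not. Capitals mark letters of the 3 elements on either strand. CHR was searched as TTTGAA and, in its other known form, as TTCGAA. The CCAAT box was searched as CCAAT. E2F sites were searched as TTTCCCGC, then TTTGGCGC and finally TTTCGCGC.
Cdk1, chr10:69352913-69353062, minus strand: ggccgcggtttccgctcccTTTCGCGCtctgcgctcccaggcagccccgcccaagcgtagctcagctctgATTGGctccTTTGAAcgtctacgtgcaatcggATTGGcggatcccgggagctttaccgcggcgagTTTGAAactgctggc
Top2a, chr11:99024190-99024339, minus strand: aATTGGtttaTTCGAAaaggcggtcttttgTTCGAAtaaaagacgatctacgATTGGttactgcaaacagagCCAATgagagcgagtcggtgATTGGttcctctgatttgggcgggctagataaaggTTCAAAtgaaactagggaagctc
Kif11, chr19:37376232-37376381, plus strand: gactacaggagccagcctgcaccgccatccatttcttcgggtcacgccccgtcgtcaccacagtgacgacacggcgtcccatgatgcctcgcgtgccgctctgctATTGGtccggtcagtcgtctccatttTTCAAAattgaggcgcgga
Cdc20, chr4:118437344-118437493, minus strand: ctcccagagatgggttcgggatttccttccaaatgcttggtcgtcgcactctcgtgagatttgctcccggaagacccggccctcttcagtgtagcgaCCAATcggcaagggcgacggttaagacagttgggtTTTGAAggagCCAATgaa
Espl1, chr15:102296143-102296292, plus strand: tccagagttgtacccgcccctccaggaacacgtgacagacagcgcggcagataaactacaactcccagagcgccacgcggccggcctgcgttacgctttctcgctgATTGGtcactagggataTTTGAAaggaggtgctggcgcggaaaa
Pttg1, chr11:43425982-43426131, minus strand: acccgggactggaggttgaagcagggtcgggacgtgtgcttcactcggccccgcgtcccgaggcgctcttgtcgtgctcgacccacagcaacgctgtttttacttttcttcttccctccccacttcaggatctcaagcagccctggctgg

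In the Cdk1 promoter, CHR letters began 71 and 15 bases before the start, with CCAAT letters on the other strand at 80 and 48 bases. In Kif11 the pair lay at 19 and 45 bases, in Espl1 at 27 and 44, and in Cdc20 the CHR lay at 18 bases between CCAAT boxes at 53 and 8. The Pttg1 window held neither CHR nor CCAAT letters in its full length, nor did those of Birc5, Mad2l1, Melk, Ncaph, Nuf2 and Nusap1.

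Over the 42 promoters, 33 (78.6%) held CHR letters on either strand, against 19.2% of all 32851 promoters of the table and 17.6% of the 21263 promoters of protein-coding genes. Within 50 bases of the start, CHR letters stood in 73.8% of the 42 and in 4.35% of protein-coding promoters. CCAAT letters stood in 31 (73.8%), against 37.4% of all promoters, and both elements together in 29 (69.0%), against 7.52%. The E2F letters were in 2 (4.76%), against 1.84% of all, and 1 overlap between different elements occurred among the 42. For comparison, 21 promoters of a DNA replication list held CHR letters in 19.0%, CCAAT letters in 76.2% and E2F letters in 42.9%. These counts describe letters in a window and no binding was measured.

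On the arrays the list took a shape shared by nearly all its genes. Its median level was 7.39 in vehicle, 6.80 at 12 hours, 8.60 at 2.5 days and 8.62 at 4.5 days, in log2 RMA units, where a difference of 1 is 2-fold. The 12-hour array held the lowest level of 46 of the 47 genes, and the highest lay at 4.5 days for 29, at 2.5 days for 16 and in vehicle for 2. These 2, Pttg1 and Foxm1, were the exceptions to the shape. How many of all expressed genes were lowest or highest on each array was not counted, so these counts have no share to stand beside.

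**Figure D1:**
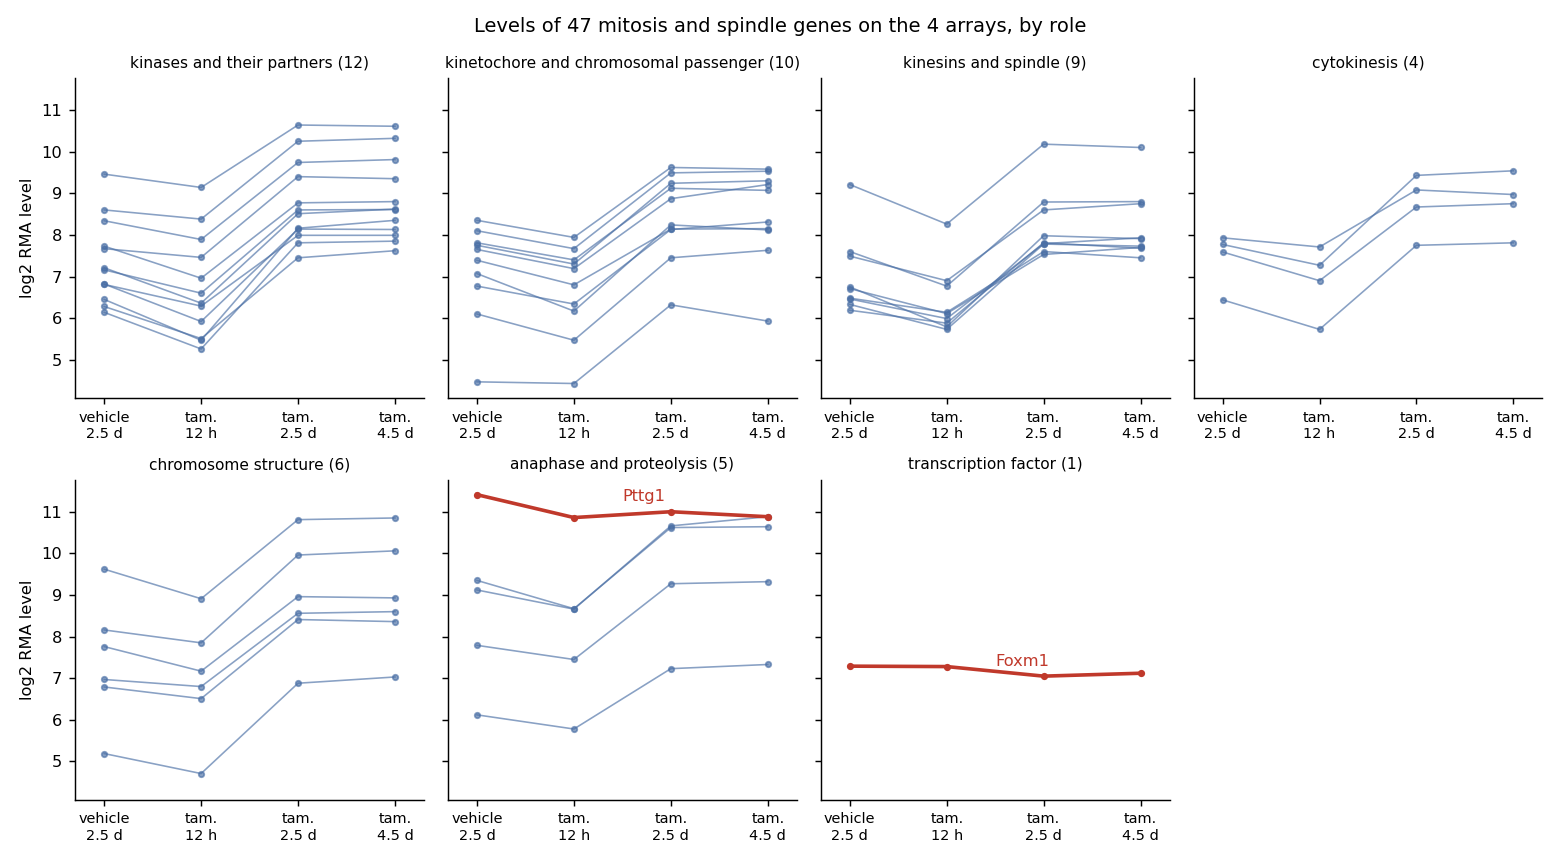
Level of each gene on each array (log2 RMA units), 1 panel per role with the number of genes in brackets; points are single arrays and each line joins the values of 1 gene. Apart from Pttg1 and Foxm1, in red, the levels at 2.5 and 4.5 days lie above vehicle and those at 12 hours at or below it.

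The labels name the treatment as one that induces metaplasia of the corpus. The first comparison asks how the pool collected 12 hours after tamoxifen differed from vehicle. All 47 genes lay below vehicle, with a median difference of -0.49, from -0.98 for Bub1 to -0.01 for Foxm1. None was 2-fold lower or higher, where 1.92% of all 12253 expressed genes were 2-fold lower and 0.996% higher. At least 1.5-fold lower (0.58 in log2) were 20 of the 47, against 5.66% of expressed genes, whose median difference was -0.04. The 18 hybridisation controls on this pair of arrays differed by at most 0.20, and 43 of the 47 genes lay below vehicle by more than that. Expressed genes spread wider than the controls, with a robust standard deviation (from the median absolute deviation) of 0.27. The full share of expressed genes past 0.20 was not counted, but many lay below vehicle by more than that. Between -0.4 and -0.2 lay 15.5% of expressed genes and 21.3% of the list, and between -0.6 and -0.4 6.3% and 40.4%. The direction depended in part on the probe set: of 81 probe sets of these genes at or above the array median on some array, 68 lay below vehicle and 11 above. With a gene's probe sets averaged 42 of the 47 genes were below vehicle, and with its probe set of middle absolute difference 36 were. For an even number of probe sets the latter reading took the smaller of the middle pair, which favours small differences.

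The 12-hour pool also differed from vehicle in genes of other tissues. Of 8 pancreatic acinar genes 7 were at least 2-fold higher there, with Cela2a at 9.32 and Ctrb1 at 7.66, and Clps was already at 14.67 in vehicle. For the list the log2 of the summed level was 14.69 in vehicle and 16.14 at 12 hours, then 14.18 and 12.81. Outside the 12-hour array that sum was nearly all Clps, at 14.67 in vehicle, then 14.16 and 12.75 at the later times. The median level of the list was 5.3 in vehicle and 12.57 at 12 hours, then 5.31 and 5.34. Of 9 squamous genes, which mark the forestomach lining, 8 were at least 2-fold lower, with Krtdap at -7.15 and Krt4 at -6.15, and the summed level went from 13.09 in vehicle to 8.26, then 12.40 and 12.53. The squamous basal keratins Krt5 and Krt14, made in the dividing layer of that lining, differed by -1.07 and -2.04 at 12 hours and by 0.07 and 0.60 at 2.5 days. The part of these tissues in the 12-hour values of mitotic genes was not tested. Each comparison rests on single arrays, so no value without the 12-hour array exists for those that use it, whereas vehicle, 2.5 days and 4.5 days can be compared without it.

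At 2.5 days, with vehicle of the same time, 42 of the 47 stood 2-fold or more above vehicle and none 2-fold below, against 3.32% and 1.94% of 12295 expressed genes. The median difference was 1.31, beside 0.02 over expressed genes, and the range ran from -0.41 for Pttg1 to 1.84 for Ndc80. Of the 5 genes short of 2-fold, Kif22 was at 0.98, Hmmr at 0.82 and Cenpf at 0.75, and only Foxm1 and Pttg1 lay below vehicle. The controls differed by at most 0.31 here, and 45 genes lay above that. The robust standard deviation of expressed genes was 0.35, wider than that limit. Their full share past 0.31 was not counted, but 7.95% lay between 0.4 and 0.6 and 3.8% between 0.6 and 0.8. Of the 81 probe sets, 64 were at least 2-fold higher and 8 lay below vehicle.

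At 4.5 days 41 of 47 were at least 2-fold higher than vehicle and none lower, against 3.80% and 2.72% of expressed genes. The median was 1.37, beside -0.01 over expressed genes. This comparison shares its vehicle array with the others, so its values are given beside theirs and are not a second measurement of the same difference.

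**Figure D2:**
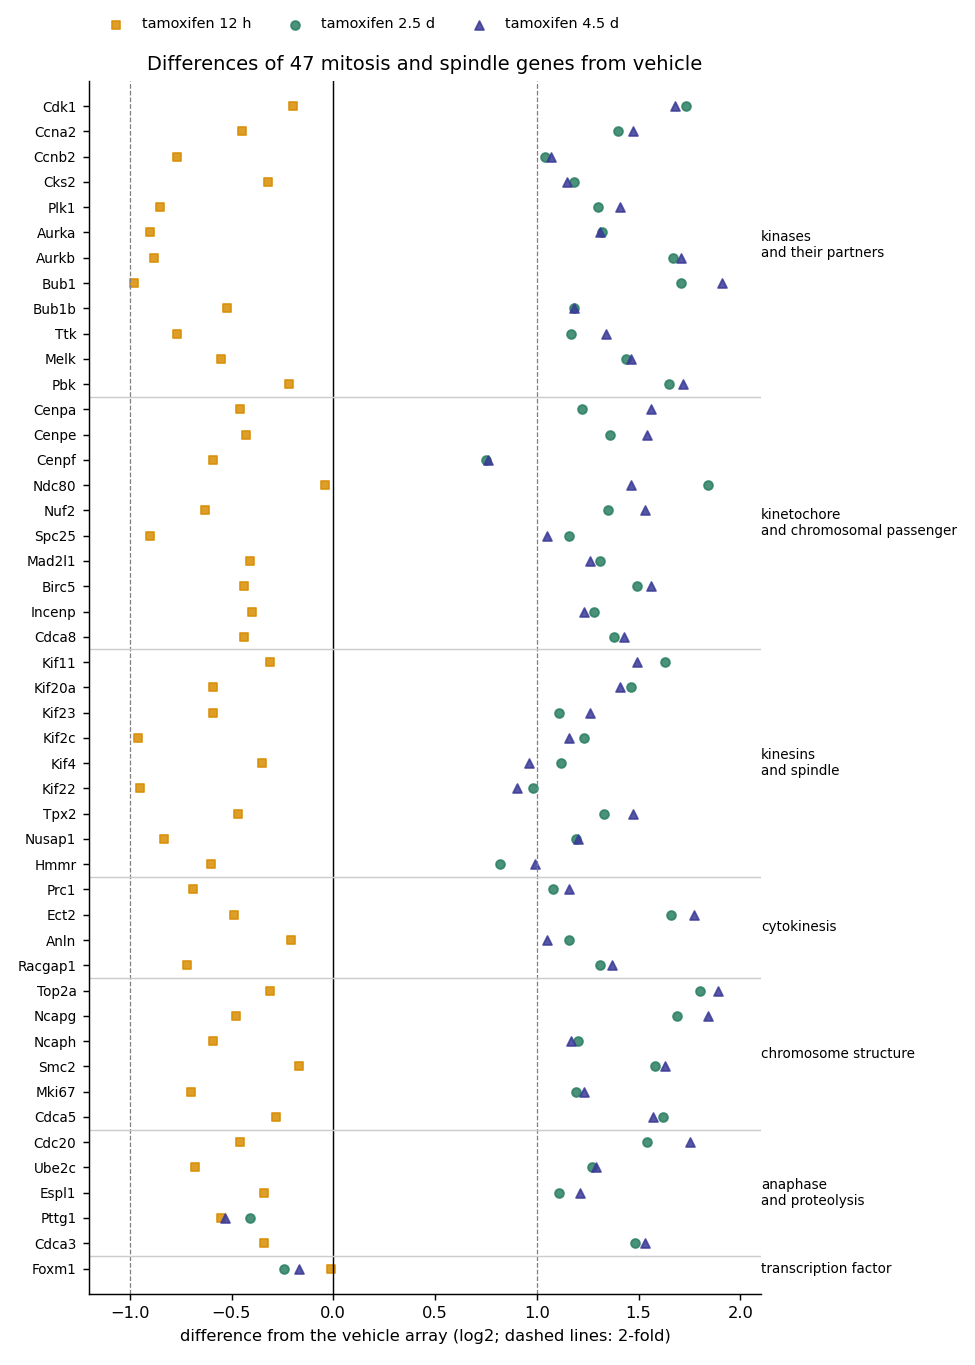
Difference of each gene from the vehicle array (log2) at 12 hours (squares), 2.5 days (circles) and 4.5 days (triangles), 1 array each, grouped by role; dashed lines mark 2-fold. The squares lie between -0.98 and -0.01, and the circles and triangles lie at 0.75 or more for all genes except Pttg1 and Foxm1.

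From 12 hours to 2.5 days, a step that leaves vehicle out, 45 of 47 genes were at least 2-fold higher and none lower, against 2.58% and 0.655% of expressed genes. The median step was 1.88, led by Bub1 at 2.69 and Aurkb at 2.55, beside 0.06 over expressed genes. From 2.5 to 4.5 days none of the 47 was past 2-fold in either direction, where 0.248% of expressed genes were higher and 0.182% lower. The median of that step was 0.04, and 45 of 47 genes lay within 0.25 of 0, as did 84.3% of expressed genes. Its extremes were Cenpa at 0.34 and Ndc80 at -0.38.

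**Figure D3:**
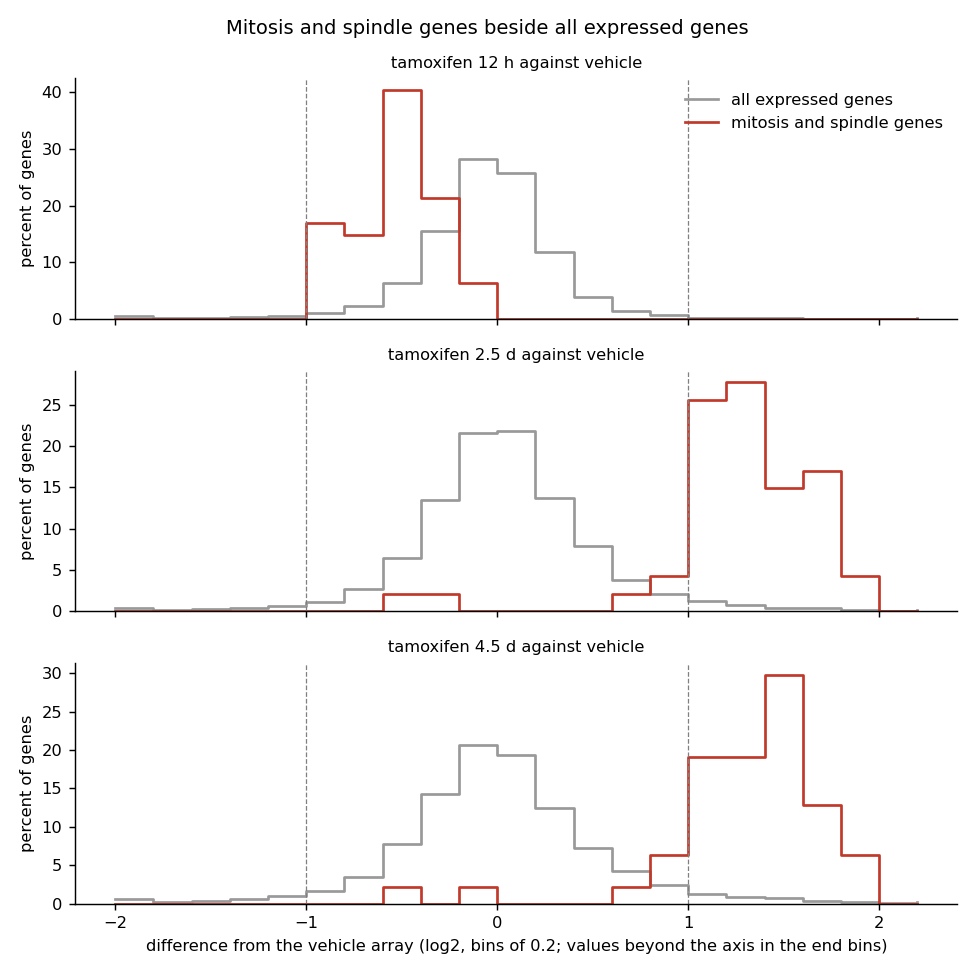
Percent of genes in each bin of difference from vehicle (log2, bins of 0.2) for the 47 mitosis and spindle genes (red) and all expressed genes (grey), 1 panel per tamoxifen array; dashed lines mark 2-fold. The red median lies at -0.49, 1.31 and 1.37 and the grey one at -0.04, 0.02 and -0.01.

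Among kinases and their partners, 12 measured genes had medians of -0.66 at 12 hours, 1.36 at 2.5 days and 1.44 at 4.5 days. Cdk1, the kinase that drives entry into mitosis, was at 7.67 in vehicle, 7.46 at 12 hours, 9.40 at 2.5 days and 9.35 at 4.5 days. Its 12-hour difference, -0.20, was the smallest of the role, while its difference at 2.5 days, 1.73 or 3.32-fold, was the largest. The cyclin genes were likewise lower at 12 hours and higher at both later times than in vehicle, by other amounts. Ccna2, the A-type cyclin of S and G2 phase, was at 8.34, 7.89, 9.74 and 9.81 in the same order of arrays. Ccnb2, a B-type cyclin that activates Cdk1, was at 7.73, 6.96, 8.77 and 8.80, so that it lay further below vehicle at 12 hours (-0.77) and less far above it at 2.5 days (1.04). Cks2, a small subunit of the cyclin-dependent kinases, was at 9.46, 9.14, 10.64 and 10.61.

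In the probe sets read, Bub1, Aurkb and Aurka had the largest steps from 12 hours to 2.5 days among all 47 genes. Bub1, a kinase of the spindle assembly checkpoint, was at 6.45 in vehicle, 5.47 at 12 hours, 8.16 at 2.5 days and 8.35 at 4.5 days, and the step from 12 hours to 2.5 days was 6.44-fold. Aurkb, the kinase of the chromosomal passenger complex, was at 6.14, 5.26, 7.81 and 7.85, a step of 5.85-fold. Aurka, which works at centrosomes and spindle poles, was at 6.82, 5.92, 8.14 and 8.13. For each of these kinases the 12-hour array was lower than vehicle by 0.88 to 0.98 in the probe set read, close to 2-fold. A second probe set gave -0.59 for Aurkb at 12 hours. Those of Bub1 and Aurka, under the array median on every array, gave -0.52 and 0.31. Plk1, which acts from mitotic entry to cytokinesis, was at 7.21, 6.36, 8.51 and 8.62, and the checkpoint kinase gene Ttk at 6.28, 5.51, 7.45 and 7.62. Bub1b, which encodes the checkpoint protein BubR1, was at 6.81, 6.29, 7.99 and 7.99. A second probe set of Bub1b gave a 12-hour difference of 0.00 and 1.13 at 2.5 days, so its 12-hour value hung on the probe set. The kinase genes Melk and Pbk, both known as markers of dividing cells, differed by -0.55 and -0.22 at 12 hours and by 1.44 and 1.65 at 2.5 days.

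The 10 kinetochore and chromosomal passenger genes had medians of -0.44 at 12 hours, 1.33 at 2.5 days and 1.44 at 4.5 days, and 9 of 10 were at least 2-fold higher at each of the later times. The NDC80 complex holds microtubules at the kinetochore, and its 3 listed subunit genes were higher than vehicle at both later times. Ndc80 was at 4.47 in vehicle, 4.43 at 12 hours, 6.32 at 2.5 days and 5.93 at 4.5 days, the largest difference of all 47 genes at 2.5 days. In vehicle its level and that of Ncapg were the only ones of the 47 under the array median. Its partner Nuf2 was at 6.10, 5.47, 7.45 and 7.63. Spc25, another subunit, was at 7.07, 6.17, 8.24 and 8.12, and its 12-hour difference of -0.90 was the furthest below 0 in this role.

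Cenpa, the histone H3 variant that marks centromeres, was at 7.65, 7.19, 8.87 and 9.21, and it had the largest difference upward from 2.5 to 4.5 days. The kinetochore motor gene Cenpe was at 6.77, 6.34, 8.13 and 8.31. Cenpf, a large protein of the outer kinetochore, was at 7.39, 6.80, 8.14 and 8.15, short of 2-fold at both later times. Mad2l1, the checkpoint protein that restrains Cdc20, was at 7.81, 7.40, 9.12 and 9.07. Within the chromosomal passenger complex, which guides chromosome attachment and cytokinesis, Birc5 (survivin), Incenp and Cdca8 (borealin) had similar values in their brightest probe sets. They differed from vehicle by -0.44, -0.40 and -0.44 at 12 hours and by 1.49, 1.28 and 1.38 at 2.5 days, and the kinase of the complex, Aurkb, by -0.88 and 1.67. Dimmer probe sets gave 0.28 for Cdca8 at 12 hours, and -0.73 at 12 hours and 0.35 at 2.5 days for Incenp.

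Of 9 kinesin and spindle genes, 7 stood 2-fold or more above vehicle at 2.5 days and 6 at 4.5 days, with medians of -0.59, 1.19 and 1.20 over the 3 times. Kif11, the motor that pushes spindle poles apart, was at 6.19 in vehicle, 5.88 at 12 hours, 7.81 at 2.5 days and 7.68 at 4.5 days. Kif2c, which depolymerises microtubules at centromeres, was at 6.75, 5.79, 7.98 and 7.91 and had the largest 12-hour difference of the role, -0.96. A further Kif2c probe set above the array median gave -0.07 at 12 hours and 0.52 at 2.5 days, so the size of its differences depended on the probe set. Kif22, a motor that moves chromosome arms, was at 9.21, 8.26, 10.18 and 10.10. Its 2 other probe sets gave 1.20 and 1.49 at 2.5 days, past 2-fold where the brightest gave 0.98, and -0.10 and -0.75 at 12 hours where it gave -0.95.

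Kif20a and Kif23, motors of the central spindle, were at -0.59 each at 12 hours and at 1.46 and 1.11 at 2.5 days. The chromosome motor gene Kif4 was at -0.35, 1.12 and 0.96. Nusap1, which bundles spindle microtubules, was at 7.60, 6.77, 8.79 and 8.80, and Hmmr, a spindle assembly factor, at 6.71, 6.11, 7.53 and 7.70. Other Hmmr probe sets above the array median on some array gave 1.15 and 1.13 at 2.5 days, past 2-fold where the brightest gave 0.82. Those under the array median on every array gave 0.06 and 0.75. Tpx2, which activates Aurora A on the spindle, was at 6.46, 5.99, 7.79 and 7.93. Its 4 probe sets disagreed at 12 hours, where they gave -0.47, -1.23, 0.93 and 1.0. At 2.5 days the first pair gave 1.33 and 1.39 and the other pair -0.30 and -0.19.

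All 4 cytokinesis genes stood 2-fold or more above vehicle at 2.5 and at 4.5 days, with medians of -0.59, 1.23 and 1.26 over the 3 times. Ect2, which activates RhoA at the cleavage site, was at 7.77 in vehicle, 7.27 at 12 hours, 9.43 at 2.5 days and 9.54 at 4.5 days, the widest range of the 4. Racgap1, a subunit of the centralspindlin complex, was at 6.44, 5.73, 7.75 and 7.81. Prc1, which bundles the midzone microtubules, was at 7.59, 6.90, 8.67 and 8.75. Anln, a scaffold of the contractile ring, was at 7.93, 7.71, 9.08 and 8.97, and a second probe set gave 0.26 instead of -0.21 at 12 hours.

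The 6 genes of chromosome structure had the smallest 12-hour median among the roles with several genes, -0.40, and the highest at 2.5 days, 1.6. Top2a, the topoisomerase that untangles sister chromatids, was at 8.16 in vehicle, 7.85 at 12 hours, 9.96 at 2.5 days and 10.06 at 4.5 days. The condensin subunit genes Ncapg, Ncaph and Smc2, whose products compact mitotic chromosomes, differed by -0.48, -0.59 and -0.17 at 12 hours and by 1.69, 1.20 and 1.58 at 2.5 days. Ncapg thus stood 3.22-fold above vehicle and Ncaph 2.30-fold. Other probe sets above the array median on some array gave 0.00 for Ncaph and 0.80 and 0.20 for Smc2 at 12 hours, so the 12-hour differences of both depended on the probe set. Mki67, the gene of the proliferation antigen Ki-67 on the surface of mitotic chromosomes, was at 9.62, 8.91, 10.81 and 10.85. Cdca5 (sororin), which protects cohesion of sister chromatids, was at 6.79, 6.51, 8.41 and 8.36. Its second probe set went the other way at 12 hours, at 0.65, and gave 1.79 at 2.5 days.

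Among the 5 anaphase and proteolysis genes, 4 stood 2-fold or more above vehicle at 2.5 and at 4.5 days. Cdc20, the activator of the anaphase-promoting complex, was at 9.12 in vehicle, 8.66 at 12 hours, 10.66 at 2.5 days and 10.88 at 4.5 days. Ube2c, the ubiquitin-conjugating enzyme of that complex, was at 9.35, 8.67, 10.62 and 10.64. Espl1 (separase), the protease that cuts cohesin at anaphase, was at 6.12, 5.78, 7.23 and 7.33, and Cdca3, an adaptor gene of mitotic entry, at 7.79, 7.45, 9.27 and 9.32. A dimmer Cdca3 probe set, which reached the array median at 12 hours only, gave -0.30 and -0.21 at the later times. In the probe sets read, the levels on both later arrays exceeded vehicle and 12 hours for each of these 4 genes.

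Pttg1 encodes securin, the inhibitor that holds separase inactive until anaphase, and it did not share that pattern. It was at 11.41 in vehicle, 10.86 at 12 hours, 0.14 above that at 2.5 days and 10.88 at 4.5 days, lower on every tamoxifen array than in vehicle by 0.41 to 0.55. Its 3 probe sets, all above the array median, gave -0.65 to -0.50 at 12 hours, -0.42 to -0.41 at 2.5 days and -0.53 to -0.43 at 4.5 days. Espl1, whose product securin binds, differed by 1.11 and 1.21 at the later times. As given with the sequences, the Pttg1 window held neither the CHR nor the CCAAT letters. Birc5, Mad2l1, Melk, Ncaph, Nuf2 and Nusap1 also lacked both and were at least 2-fold higher at 2.5 days. The 31 genes with CHR letters had medians of -0.52 at 12 hours and 1.27 at 2.5 days, and the 9 without had -0.55 and 1.31.

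Foxm1, the transcription factor that activates many G2 and M phase genes, depended on the probe set. Read from its brightest probe set it was at 7.29 in vehicle, 7.28 at 12 hours, 7.05 at 2.5 days and 7.12 at 4.5 days. A second probe set was at 5.35, 5.39, 6.31 and 6.34, which is 0.96 and 1.0 above vehicle at the later times. Another, at 6.23 in vehicle, differed by -0.15 and -0.06 there, so of 3 probe sets above the median 1 was higher at the later times, short of 2-fold at 2.5 days, and none was lower at 12 hours by more than 0.11.

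A further 69 measured genes of mitosis, drawn up as lists by role, were less uniform. Of these, 30 were at least 2-fold higher at 2.5 days and none lower, with a median of 0.83, and at 12 hours 46 lay below vehicle and 23 above, with a median of -0.11. In the list of other kinases and entry factors 6 of 13 were past 2-fold at 2.5 days. Plk4, the kinase of centriole duplication, was at 2.14, the histone kinase gene Haspin at 2.05 and Cks1b at 1.70. At 12 hours Haspin was at 0.48, under the array median on both arrays of that pair, and the centrosomal kinase gene Nek2 at -0.56. In the other kinetochore list 12 of 25 were past 2-fold, led by Trip13, which recycles checkpoint complexes, at 2.12, Ska1 at 1.82 and Ska3 at 1.81. At 12 hours 14 of the 25 were below vehicle and 11 above, from Cenpp at -1.0 (rounded, short of 2-fold, and under the array median on both arrays) and Ska1 at -0.61 to Nsl1 at 0.36.

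Other kinesin and spindle genes were past 2-fold in 8 of 15 cases at 2.5 days, with Kif18a at 1.81, Tacc3 at 1.70 and Spag5 at 1.21. With a gene's probe sets averaged the count was 3 of 15. Spag5 and the spindle pole gene Aspm were the lowest at 12 hours, -0.87 and -0.80. Of 5 other cytokinesis genes, Cep55 at 1.51 and Iqgap3 at 1.11 passed 2-fold at 2.5 days, Arhgap11a was at 0.59, and Iqgap3 and Cep55 were at -0.80 and -0.16 at 12 hours. With averaged probe sets the count was 1 of 5.

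Of 11 other condensin and cohesin genes 2 passed 2-fold at 2.5 days, both from condensin: Ncapg2 at 1.66 and Smc4 at 1.13, with Ncapd2 at 0.95. At 12 hours Ncapd2 and Ncapd3 were at -0.66 and -0.56. None of 11 genes of the anaphase-promoting complex, its coactivator gene Fzr1 included, passed 2-fold at any time, with a median of 0.21 at 2.5 days and Anapc10 highest at 0.65, followed by Anapc4 at 0.40 and Anapc1 at 0.39. The activator Cdc20 and the enzyme Ube2c thus stood at 1.54 and 1.27 beside a complex whose highest gene was at 0.65. At 12 hours the subunit genes with the largest differences were Anapc5 at -0.32 and Anapc10 at 0.22.

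Among 13 genes that control cell cycle transcription, 5 were at least 2-fold higher at 2.5 days, and the count was 1 with averaged probe sets. The repressor-type E2F genes E2f7 and E2f8 were at 1.76 and 1.73 and Mybl2, the MYB protein of the complex that binds CHR elements, at 1.39. Rbl2, a pocket protein of the repressing DREAM complex, was at -0.45 at 12 hours, -0.45 at 2.5 days and -0.65 at 4.5 days, and E2f3 at 0.40 at 12 hours.

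Genes of DNA replication lay mostly above vehicle at 12 hours and at the later times. Of 24 measured genes 23 lay above vehicle at 12 hours, with a median of 0.31, and 6 were at least 1.5-fold higher, against 3.37% of expressed genes. Mcm4, of the replicative helicase, stood at 0.90 and Cdt1, which loads it, at 0.77, where no gene of the mitotic list lay above vehicle in its brightest probe set. At 2.5 days 20 of 24 were at least 2-fold higher, with Rrm2 at 2.27 and Ccne2 and Mcm5 at 1.92 each, and the median was 1.23. From 12 hours to 2.5 days their median step was 0.87, beside 1.88 for the mitotic list. The difference between the lists has no test with 1 array per group.

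**Figure D4:**
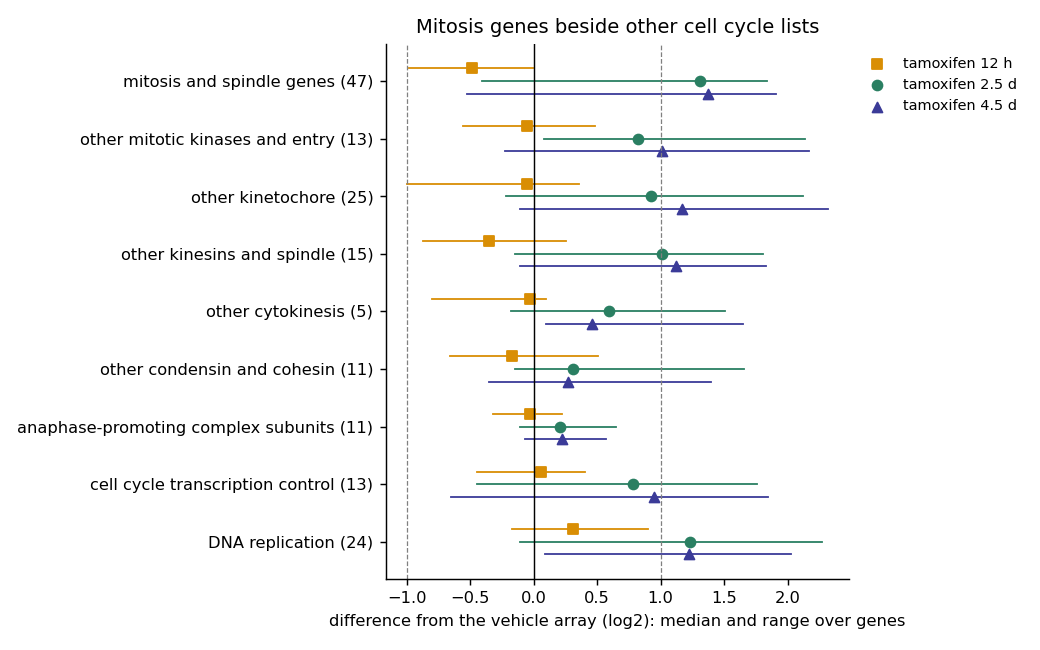
Median (symbol) and range over genes (line) of the difference from vehicle (log2) for the 47 mitosis and spindle genes and for other cell cycle lists, with the number of genes in brackets; squares 12 hours, circles 2.5 days, triangles 4.5 days, dashed lines 2-fold. The medians at 12 hours are -0.49 for the mitotic genes and 0.31 for DNA replication genes.

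Markers of cells in and around the glands also differed between the arrays. Corpus markers were present: the parietal proton pump gene Atp4b was at 14.19 in vehicle and the chief cell list had a median of 13.78. The 8 parietal genes had median differences of -1.66, -1.28 and -1.12 on the tamoxifen arrays in order of time, led at 12 hours by Kcne2 at -2.85 and Slc26a7 at -2.38, and the 5 chief genes of -0.21, -1.68 and -2.44, led at 12 hours by Bhlha15 at -1.95. For chief genes the summed level, as log2, was 15.77 in vehicle, 15.65 at 12 hours, 14.68 at 2.5 days and 13.22 at 4.5 days. Dividing blood cells are another source of mitotic transcripts. Of 6 macrophage genes 3 (Cd68, C1qc and C1qa) stood 2-fold or more above vehicle at 2.5 days and none at 4.5 days. At 2.5 days C1qb fell just short of 2-fold, while Adgre1 and Csf1r were at 0.04 and 0.02. The summed levels of the 6 were 11.31 in vehicle, 11.37 at 12 hours, 11.89 at 2.5 days and 11.86 at 4.5 days.

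T cell genes had medians of 0.05, -0.33 and -0.18, with Cd3g and another of the 5 below the array median throughout. B and plasma cell genes had medians of -0.26, -0.38 and -0.55, and all 5 were below the array median on both later arrays. The 3 erythroid genes were below the array median on all 4 arrays. The 6 endothelial and fibroblast genes had medians of -0.14, 0.09 and 0.13, and the 5 smooth muscle genes -0.43, -0.77 and -0.69. The markers of mucous neck cells, 3 in number, had medians of -0.73, 0.56 and 1.61, which are the values of Aqp5. They did not move together: Cftr was at -1.14, 1.15 and 2.38, and Tff2 at -0.09, -0.24 and -0.06. The 4 markers of surface mucous cells had medians of 0.02, 0.06 and 0.04. The part of the parietal, chief and macrophage values in those of the mitotic genes was not tested.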

How the data were processed

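RNA of 4 pools of gastric corpus epithelium was read on Affymetrix mouse expression arrays. The authors deposited log2 values for 45101 probe sets. Per the submitters' processing notes these come from RMA and Partek, with versions not given in the sources used here. The log base is not stated and was taken as 2 because values span 2.06 to 14.85. RMA sets the arrays to equal distributions, so a change common to most genes stays hidden, and it compresses differences of dim genes. The number of arrays limits the precision.

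Probe sets with exactly 1 platform gene symbol were kept (34945, giving 18193 genes), and each gene was represented by the brightest of its probe sets on average. All 47 gene IDs matched their symbols in the RefSeq table. A gene counted as expressed if the brighter array of a pair reached the median of its own array. Differences of log2 values were counted past 2-fold, with pandas 2.3.3 in Python 3.11.15. The counting was tested on simulated data. The genes and lists were chosen with earlier results of these data known. All listed genes were named, and of other lists the largest differences at 2.5 days (up to 3) and 12 hours (up to 2). For T cell, B and plasma cell, stromal, muscle and surface mucous lists medians are given. For macrophages counts past 2-fold, single genes and summed levels are given instead, and for erythroid genes only their place under the array median. Atp4b, Clps, Krt5, Krt14, Nsl1, Tff2 and the macrophage genes were chosen after their values were seen. Some genes of the other lists are not reported here. Alternatives covered the probe set, the level filter, the threshold and the scaling.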

Additional observations from a re-analysis of the deposited data

Results flagged for a closer look

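Medians of the list and of 6 roles lay below vehicle at 12 hours and above it at 2.5 days, a difference of direction between time points that was not tested. The later median was 1.31 for all 47 genes, 1.36 for kinases, 1.33 for kinetochore genes, 1.19 for kinesin and spindle genes, 1.23 for cytokinesis, 1.6 for chromosome structure and 1.27 for anaphase and proteolysis.

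The same held for 17 single genes that were at least 1.5-fold lower at 12 hours and 2-fold higher at 2.5 days. Their steps between these arrays were 2.69 for Bub1, 2.55 for Aurkb, 2.21 for Aurka, 2.20 for Kif2c, 2.15 for Plk1, 2.07 for Spc25, 2.05 for Kif20a, 2.02 for Nusap1 and 2.02 for Racgap1. The others were Nuf2 at 1.98, Ube2c at 1.95, Ttk at 1.94, Mki67 at 1.89, Ccnb2 at 1.81, Ncaph at 1.79, Prc1 at 1.77 and Kif23 at 1.70.

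Some probe sets not read for the counts reached the array median on the compared arrays. In 3 genes such a probe set had the opposite sign to the one read, by 1.5-fold or more. At 12 hours these gave 0.65 for Cdca5 and 0.93 and 1.0 for Tpx2, and for Foxm1 0.96 at 2.5 days and 1.0 at 4.5 days. Dimmer probe sets were left out of this count, among them one of Smc2 at 0.80 at 12 hours. Any opposite sign at 12 hours occurred in 9 of 24 genes with several probe sets above the median on some array.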

How the results depend on the processing

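Of 115 recalculated counts and medians of the list, 101 stayed within 1.5 times (counts) or the spread of hybridisation controls (medians). Many of the 101 were counts of 0 that stayed 0. The array-median filter could change nothing in comparisons where all 47 genes passed it. No called median changed direction. Of 650 values for single genes and other lists 258 moved further and 7 reversed. At 12 hours 0 to 11 of the 47 genes lay above vehicle over 5 alternatives, among them Aurka at 0.31 and Cenpf at 0.40. With probe sets averaged, the medians became -0.34 at 12 hours, 1.15 at 2.5 days, 1.19 at 4.5 days and 1.51 from 12 hours to 2.5 days. The probe set of middle absolute difference is the smaller of the middle pair where their number is even, which favours small differences. Read from it, the medians became -0.32, 1.18, 1.16 and 1.5, and 1 gene was 2-fold lower from 12 hours to 2.5 days. The counts of genes 2-fold higher ranged from 30 to 43 at 2.5 days, 28 to 44 at 4.5 days and 34 to 45 for that step over 7 alternatives each. Shifting arrays by hybridisation controls gave medians of 1.44, 1.53 and 2.06 for the last 3 and 2 genes 2-fold lower at 12 hours, and a threshold of 1.5-fold gave 20. With probe sets of middle absolute difference Aurka at 2.5 days became -0.04, Incenp -0.60 and -0.62 at 2.5 and 4.5 days, Tpx2 -0.30 and -0.13, and Cdca3 -0.30 and -0.21. For Aurka and Incenp that probe set was below the array median on every array, and the cause of these shifts was not tested. No paired analysis was possible because each group held 1 array. Genes near background, such as Ndc80 in vehicle, have differences that this scale understates.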
